A study of Mus musculus with 10 samples.

Results

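Immune checkpoint receptors and the ligands of PD-1 were followed as 8 genes in co-cultures of murine keratinocytes and CD8+ T cells. They are the ligand genes Cd274 (PD-L1), Pdcd1lg2 (PD-L2) and Lgals9 (galectin-9), and the receptor genes Pdcd1 (PD-1), Ctla4, Lag3, Havcr2 (TIM-3) and Tigit. They were chosen by name, and each of these 8 names was found in the gene tables of all 10 libraries, which list 25814 genes. RNA was sequenced from 5 groups of 2 libraries each. Primary keratinocytes from tail skin of adult mice were kept by themselves (keratinocytes alone) or were given CD8+ T cells from spleen, which had been selected by CD8 microbeads and stimulated through CD3 and CD28 for 1 d. Before lysis of the keratinocytes, the T cells were removed by washing. T cells were collected after this activation (activated T cells), after 1 further day in a mix that contained keratinocyte medium (T cells in mixed medium), or after co-culture with keratinocytes (co-cultured T cells). Co-culture lasted 1 d by the sample labels and 1 h by the deposited design text. Both groups that followed the activated T cells therefore differed from them in medium and time at once, and these cannot be told apart.

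Checkpoint receptors are inhibitory receptors that appear on T cells after activation and limit their response. PD-1 is engaged by PD-L1, which many tissue cells, keratinocytes included, synthesize upon exposure to IFN-γ, and by PD-L2, which is mainly found on antigen-presenting cells. CTLA-4 competes with CD28 for CD80 and CD86, LAG-3 binds MHC class II molecules, TIGIT competes with CD226 for PVR and nectins, and galectin-9 is one of the ligands of TIM-3. Ligands on keratinocytes are thus one side of the contact, and receptors on T cells the other.

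The libraries had 12864931 to 18019609 exon reads (median 14830028). For keratinocytes these were 18019609 and 15916992 reads in culture alone, and 14510546 and 15149509 in co-culture. For T cells they were 15926898 and 13161039 upon activation, 14127928 and 15518016 in mixed medium, and 13998747 and 12864931 in co-culture. RNA levels are given as the deposited RPKM, i.e., exon reads normalized to the length of the exons and to all mapped reads, so that levels can be compared between genes. At this depth 3 reads on 1 kb of exon correspond to 0.158 to 0.212 RPKM, a floor that covers counting error only. All 8 genes lay above their floor of 3 reads in all 10 libraries, the lowest count being 8 reads for Pdcd1lg2. Replicates were separate libraries, since their counts differed with a chi-square per degree of freedom of 94.2 to 208.7, where sampling noise gives about 1. Nothing states that they came from separate animals, so that p-values measure only the spread between these samples. With 2 libraries against 2, an exact permutation test cannot give a two-sided p under 0.333, and tests are therefore taken from a fit across all genes (edgeR's quasi-likelihood test, adjusted after Benjamini and Hochberg over all genes tested).

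Markers were read to see which cells the libraries held. Keratinocyte libraries were dominated by Krt14 and Krt5, the keratins of basal cells, and the 6 keratinocyte markers summed to 10969.9 and 11777 RPKM alone and to 12612 and 15694 in co-culture. The 6 markers of differentiated keratinocytes, led by Sprr1a, summed to 2992 and 2296 RPKM alone but to 699.6 and 94.7 RPKM in co-culture, so that both keratinocyte groups differed in this respect too. However, they also held T-cell RNA, also without any co-culture. Of the 8 T-cell markers, 5 had reads with Cd3g as the most abundant, whereas Trac, Trbc1 and Trbc2 were listed at 0 in all libraries. They summed to 93.9 and 369 RPKM in keratinocytes alone and, upon co-culture, to 118 and 659 RPKM, replicate 2 being the higher one in both groups. In the T-cell libraries the sum was 764 and 1228 RPKM upon activation, 1595 and 1698 in mixed medium, and 1569.9 and 1362 in co-culture. The CD8 genes Cd8a and Cd8b1 together reached only 0.224, 1.47, 1.32 and 3.16 RPKM in the keratinocyte libraries, against 251 to 1096 RPKM in the T-cell libraries. Cd4, the marker of helper T cells, was at 11.4, 43.5, 15.0 and 84.5 RPKM in the same keratinocyte libraries. It was also at 16.8 and 102 RPKM in activated T cells and at 62.0 to 75.9 RPKM in the other T-cell libraries, although these cells had been selected by CD8.

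Markers of other cells were read as well. Of the 10 Langerhans, dendritic and myeloid markers 9 were listed and 8 had reads, with Cd74 on top over all libraries and Cd207 at 0. They summed to 59.9, 116, 57.1 and 151 RPKM in the keratinocyte libraries, of which Cd68 alone made up 40.7, 39.4, 29.7 and 24.0. In activated T cells this sum was 221 and 448 RPKM, in mixed medium 243 and 388, and in co-culture 156 and 173. B-cell markers, led by Cd79b, summed to 0.531 to 3.85 RPKM in keratinocytes and to 16.6 to 92.3 RPKM in T cells. Both NK-cell markers summed to at most 2.53 RPKM in any library, and Dct, the leading melanocyte marker, was at most at 7.05 RPKM. In the opposite direction, co-cultured T cells held 73.9 and 21.8 RPKM of keratinocyte markers and 488 and 359.5 RPKM of differentiation markers, mostly Sprr1a, whereas T cells in mixed medium held 6.47 and 3.98 RPKM and 0.582 and 1.3 RPKM, respectively. In such bulk samples fewer cells of a type and less RNA per cell cannot be told apart. The part of these other cells in the levels of the checkpoint genes was not tested. The ratios to Cd3 RNA given below describe levels only.

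Cd274 (ENSMUSG00000016496), the gene of PD-L1, spans chr19:29367455-29388095 of GRCm38 on the plus strand with 7 exons. Pdcd1lg2 (ENSMUSG00000016498), the gene of PD-L2, is its direct neighbour on the same strand at chr19:29410919-29471157, with 6 exons and a gap of 22824 bases. In keratinocytes alone, Cd274 was at 0.611 RPKM in replicate 1 (42 exon reads) and 1.26 RPKM in replicate 2 (78 reads), and upon co-culture at 5.5 RPKM (303 reads) and 4.84 RPKM (289 reads). Both co-cultured libraries lay above both others, which chance gives for 16.7% of genes with 2 libraries against 2, and the group means of 5.17 ± 0.472 and 0.938 ± 0.462 RPKM (SD, n = 2) differed 5.51-fold. Within the replicate numbers the ratio was 9.01 and 3.82. Reads across exon junctions, which come from spliced RNA, numbered 1 and 15 alone and 39 and 21 in co-culture. In T cells the gene was at a similar level in all 3 groups, with 5.78 and 5.52 RPKM upon activation, 5.47 and 4.08 in mixed medium, and 4.44 and 4.7 in co-culture. Ordered by their means, activated T cells (5.65 ± 0.185) were thus followed by co-cultured keratinocytes, T cells in mixed medium (4.77 ± 0.982), co-cultured T cells (4.57 ± 0.185) and, far below, keratinocytes alone. Co-cultured keratinocytes overlapped with T cells in mixed medium, and these with co-cultured T cells.

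For Pdcd1lg2 the keratinocyte values were 0.256 and 2.46 RPKM without and 0.64 and 3.91 RPKM with T cells, i.e., high in replicate 2 of both groups, which overlapped. The smallest of these values rests on 8 reads. In T cells it was at 10.7 and 5.28 RPKM upon activation, at 3.34 and 4.97 RPKM in mixed medium, and at 2.35 and 2.28 RPKM in co-culture. The 3 T-cell groups did not overlap, and the mean of activated T cells (7.97 ± 3.81 RPKM) was 3.44-fold that of co-cultured T cells (2.32 ± 0.0551 RPKM).

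Lgals9 (ENSMUSG00000001123), at chr11:78962974-78984946 on the minus strand with 16 exons, was the ligand with the highest RNA level of the 3 in all 5 groups. Keratinocytes alone held a mean of 15.6 ± 5.17 RPKM (366 and 529 exon reads), and co-cultured keratinocytes 50.5 and 58.4 RPKM (1238 and 1555 reads). Here too both co-cultured libraries lay above both others, with a mean of 54.5 ± 5.62 RPKM and a ratio of 3.49. Activated T cells held 27.2 and 23.6 RPKM, T cells in mixed medium 92.8 and 66.5, and co-cultured T cells 102 and 68.7. The means of both later groups, 79.7 ± 18.6 and 85.1 ± 23.3 RPKM, overlapped with each other and lay 3.14-fold and 3.35-fold above that of activated T cells (25.4 ± 2.51). Thus in T cells Lgals9 reached this level also without keratinocytes.

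**Figure D1:**
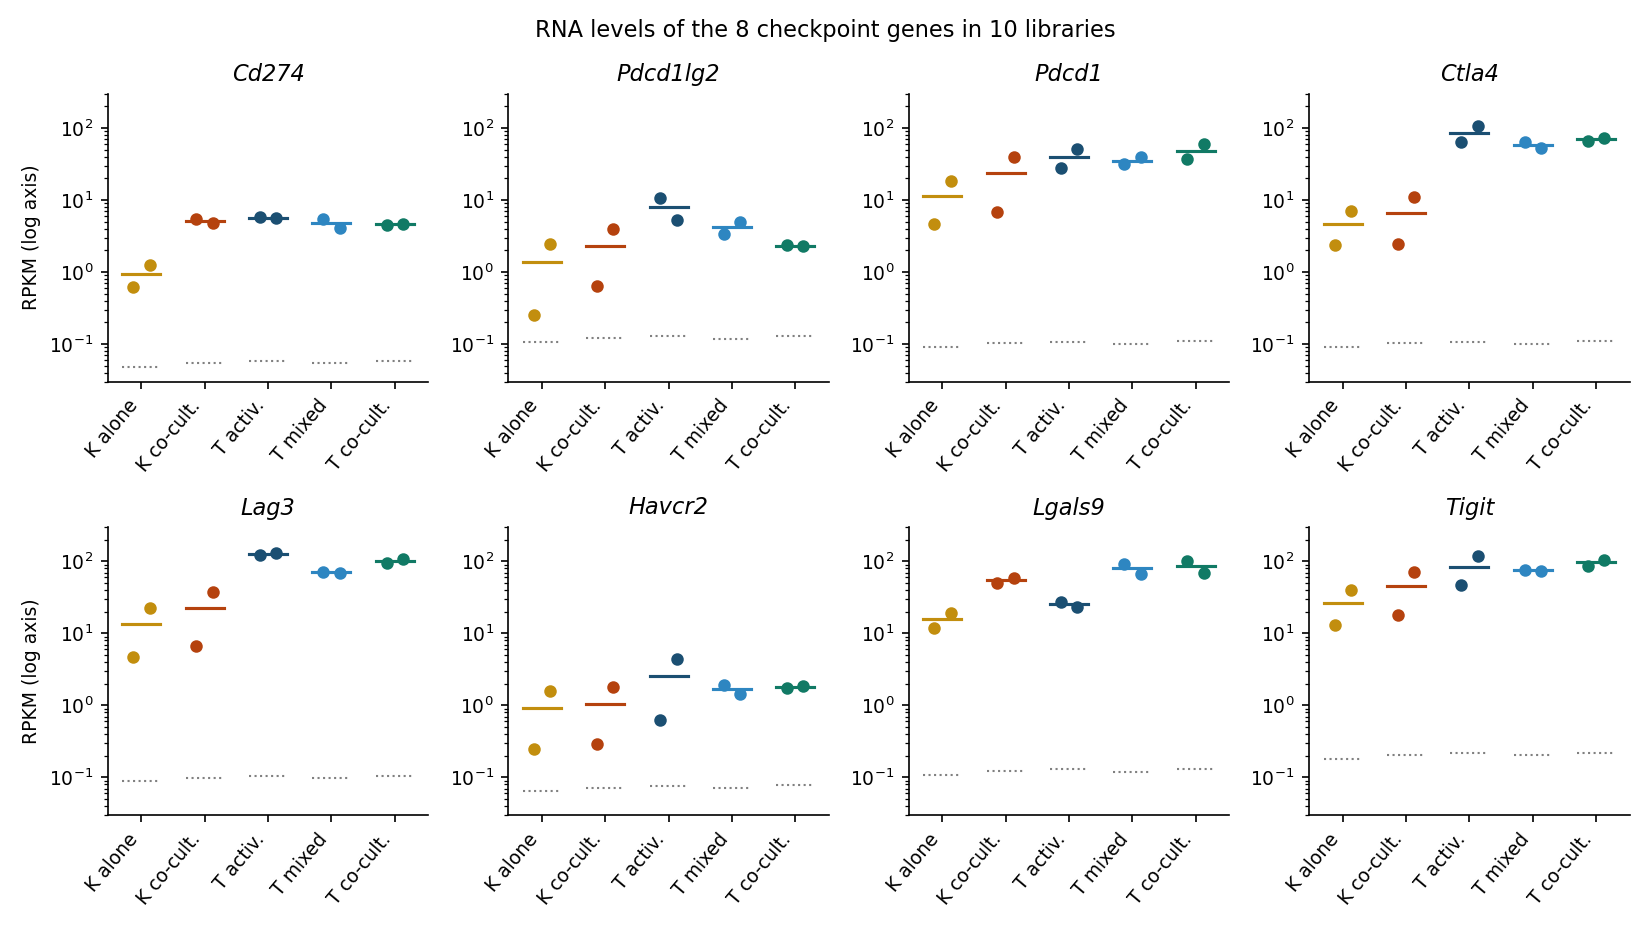
RNA levels of the 8 checkpoint genes, with RPKM on a log axis. Points are libraries, horizontal bars are means of the 2 libraries of a group, and dotted lines show the level of 3 reads. Cd274 sits at 4.08 to 5.78 RPKM in 8 libraries but at 0.611 and 1.26 in those of keratinocytes alone, whereas the receptors differ widely between the replicates of both keratinocyte groups.

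Since Cd274 and Lgals9 were the members with higher RNA levels in both co-cultured keratinocyte libraries, their promoters are shown, from 250 bases before to 50 after the start of the gene (RefSeq, GRCm38.p6, 5′ to 3′ on the strand of the gene). Cd274 lies at chr19:29367188-29367487 on the plus strand and Lgals9 at chr11:78984875-78985174 on the minus strand. Capitals mark GAAA and GAAA with any 2 bases between, the core of elements bound by IRF proteins (ISRE), or GGAAA, the core bound by NFAT proteins, each on either strand.
Cd274: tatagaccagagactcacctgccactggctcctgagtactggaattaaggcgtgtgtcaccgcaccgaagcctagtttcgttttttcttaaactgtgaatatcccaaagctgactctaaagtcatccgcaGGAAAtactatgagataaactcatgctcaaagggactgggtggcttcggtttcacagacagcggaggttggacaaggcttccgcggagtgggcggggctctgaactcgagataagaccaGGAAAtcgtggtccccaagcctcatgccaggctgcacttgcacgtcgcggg
Lgals9: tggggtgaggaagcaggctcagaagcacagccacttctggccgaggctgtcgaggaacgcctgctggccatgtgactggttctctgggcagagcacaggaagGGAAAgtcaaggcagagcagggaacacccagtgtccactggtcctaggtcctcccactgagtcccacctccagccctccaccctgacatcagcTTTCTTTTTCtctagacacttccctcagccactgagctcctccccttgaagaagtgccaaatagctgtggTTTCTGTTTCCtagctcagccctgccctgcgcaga
In Lgals9 the ISRE letters were found at 2 places, 55 bases before and 16 bases after the start, and the second of them overlaps a GGAAA match. Of all 32851 promoters of 300 bases, 3.44% hold these letters. In Cd274 only GGAAA was found, 120 bases and 1 base before the start, which 61.3% of all promoters hold. Promoters were listed for 7 of the 8 genes, all except Lag3. Among these 7, GGAAA was found in 6, the ISRE letters in 1 (Lgals9), and the AP-1 letters TGANTCA in 1 (Havcr2, 200 bases before the start, 7.81% of all promoters). A match describes the sequence and not a bound site, and a missing match says only that the letters are not in this window.

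The receptors were then read in the T cells. Pdcd1 (ENSMUSG00000026285, chr1:94038305-94052553, minus strand, 5 exons) was at 27.9 and 51.5 RPKM in activated T cells, 31.1 and 39.3 in mixed medium, and 36.6 and 58.9 in co-culture. The 3 groups overlapped, with means of 39.7 ± 16.7, 35.2 ± 5.81 and 47.8 ± 15.8 RPKM. Tigit (ENSMUSG00000071552, chr16:43648861-43664184, minus strand, 4 exons) was at 47.6 and 120.2 RPKM upon activation, 76.9 and 72.6 in mixed medium, and 87.4 and 106 in co-culture. Its activated libraries overlapped with both other groups, and both co-cultured libraries lay above both of the mixed medium. For both genes, and for Cd4, the second library of activated T cells was the higher one, whereas Cd8a was at 176 RPKM in the first and at 110 RPKM in the second.

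Lag3 was the member with the highest mean in activated and in co-cultured T cells, and Ctla4 the next in activated T cells. Lag3 (ENSMUSG00000030124, chr6:124904361-124911705, minus strand, 8 exons, next to the related Cd4 gene) was at 124 and 130.1 RPKM in activated T cells, 71.8 and 68.4 in mixed medium, and 95.4 and 107 in co-culture. These groups did not overlap, with means of 127 ± 4.57, 70.1 ± 2.34 and 101 ± 8.57 RPKM, so that co-cultured T cells lay between both others. Ctla4 (ENSMUSG00000026011, chr1:60887000-60915832, plus strand, 6 exons, next to the costimulatory Icos gene) was at 62.8 and 107 RPKM in activated T cells, 63.6 and 52.0 in mixed medium, and 65.8 and 72.2 in co-culture. The libraries of activated T cells overlapped with both other groups, which themselves did not overlap. Havcr2 (ENSMUSG00000020399, chr11:46454935-46481255, plus strand, 11 exons) remained low, at 0.634 and 4.46 RPKM upon activation (29 and 175 reads), 1.93 and 1.45 in mixed medium, and 1.76 and 1.84 in co-culture. By its means of 2.55 ± 2.71, 1.69 ± 0.338 and 1.8 ± 0.0584 RPKM, TIM-3 RNA was more than an order below the other receptors in all 3 T-cell groups.

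Comparing T cells in mixed medium with activated T cells asks what medium and time do without keratinocytes. One of the 8 members passed the test, Lgals9, whose RNA rose by a log2 fold change of 1.79 (SE 0.31, adjusted p = 0.0211, edgeR's quasi-likelihood test), among 776 of 11863 genes called (6.54%). With any 1 of the 4 libraries of both groups left out this call was lost. Without replicate 1 or 2 of the activated T cells the log2 fold change was 1.86 (adjusted p = 0.106) and 1.74 (0.0631), and without library a or b of the mixed medium 1.64 (0.101) and 1.95 (0.0824). DESeq2 and limma called Lgals9 too, and over all alternatives the adjusted p ran from 1.17e-06 to 0.106. The count of 776 genes itself was 62 without replicate 1 of the activated T cells, and 57 and 24 without library a or b of the mixed medium. Lag3 had a log2 fold change of -0.71 (SE 0.29) with an adjusted p of 0.177 by edgeR (0.0507 to 0.718 over the alternatives). By their libraries, 1 member lay above activated T cells (Lgals9; background 22.1% of genes) and 3 lay below (Cd274, Pdcd1lg2 and Lag3; background 32.5%). The median log2 fold change was -0.27 over the members and -0.01 over all genes tested.

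In co-cultured T cells against activated T cells, which share the activated libraries with the comparison before, Lgals9 again was the member called. It rose by a log2 fold change of 1.93 (SE 0.31, adjusted p = 0.0118, edgeR), among 1222 of 11863 genes called (10.3%), which were 266 without replicate 1 of the activated T cells and 498 without library b of the co-culture. Without that replicate 1 the adjusted p was 0.0637 at a log2 fold change of 1.99, and over all alternatives it ran from 8.43e-08 to 0.0637. Pdcd1lg2 came next with a log2 fold change of -1.57 (SE 0.55) and an adjusted p of 0.106 by edgeR (0.065 to 0.438 over the alternatives), and the receptors ranged from -0.34 (Havcr2) to 0.47 (Pdcd1). Both libraries lay above both others for 1 member (Lgals9; 23.6% of all genes) and below for the same 3 members as before (33.9%). The median was -0.11 over the members and -0.01 over all genes.

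The presence of keratinocytes itself is read from co-cultured T cells against T cells in mixed medium. In edgeR no member passed the test here, and 31 of 11863 genes did (0.261%), which were 19 or 16 without library a or b of the mixed medium and 52 without library a of the co-culture. DESeq2 and limma on log2(RPKM + 1) called 0 of the 8 members as well. An unadjusted p under 0.05 was found for 0 of them in edgeR, against 409 of all genes. In limma it was found for 1, against 457 of all genes. The largest changes were log2 fold changes of -0.81 (SE 0.54) for Pdcd1lg2 and 0.59 (SE 0.29) for Lag3, and Lgals9 was at 0.14 (SE 0.3), each with an adjusted p of 1.0 in edgeR. Cd274 was at 0.0 (SE 0.37). Both co-cultured libraries lay above both others for Ctla4, Lag3 and Tigit, which is 3 of 8 members against 14.2% of all genes, and below for Pdcd1lg2, 1 of 8 against 13.1%. A p that misses the threshold does not show equal levels. The standard errors of the members ran from 0.29 (Lag3) to 0.85 (Havcr2). They leave room for changes of the size of that of Lag3 and for larger ones.

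**Figure D2:**
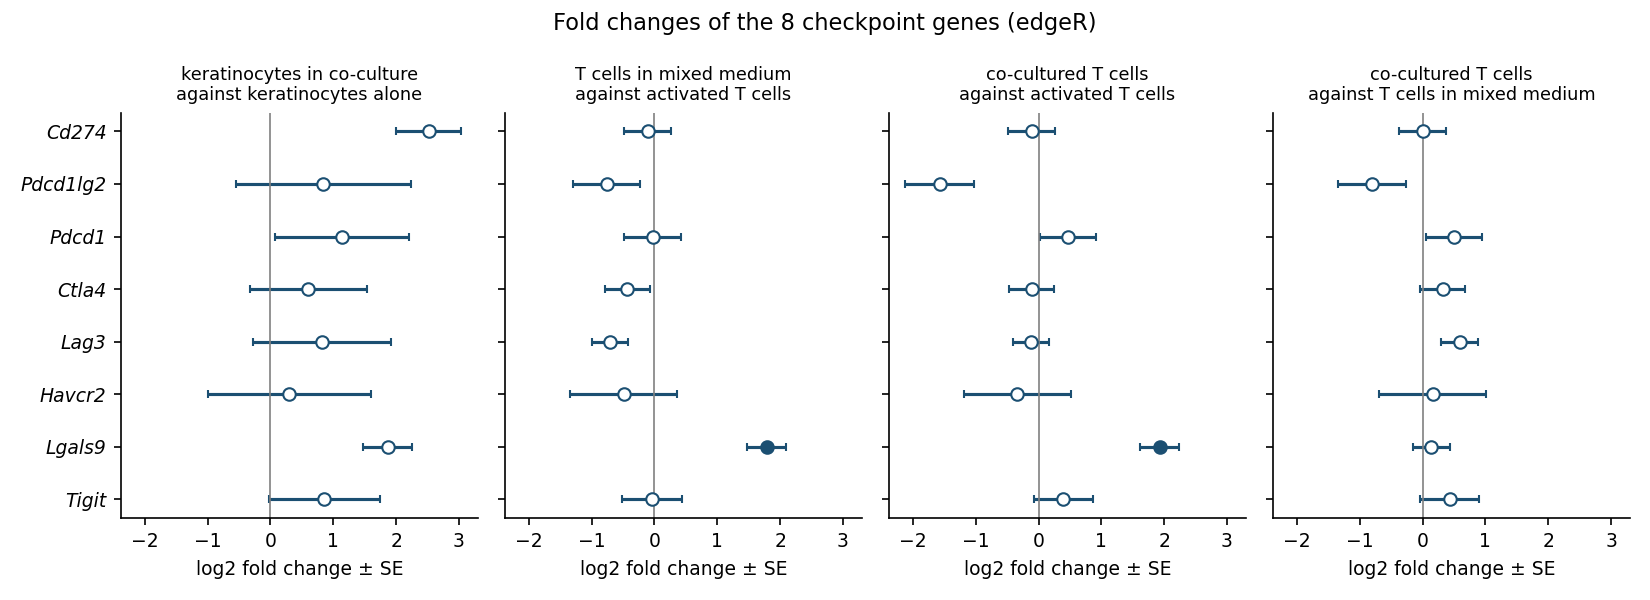
Log2 fold changes of the 8 genes in the 4 comparisons within a cell type (edgeR, points with bars of 1 standard error on a linear axis). Filled points are called at an adjusted p under 0.05, which holds for Lgals9 in both comparisons with activated T cells, at 1.79 and 1.93.

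For keratinocytes the question is what co-culture with T cells changes in them. By the paper, co-cultures received a mix of keratinocyte and T-cell medium, whereas keratinocytes were maintained in keratinocyte medium. The part of the medium was not tested. In edgeR 0 of 12515 genes passed the adjusted p (0.0%), members included, although 901 genes and 2 of the 8 members had an unadjusted p under 0.05. These members were Cd274, with a log2 fold change of 2.52 (SE 0.52, adjusted p = 0.658), and Lgals9, with 1.87 (SE 0.39, adjusted p = 0.658). DESeq2 called both genes, at 2.54 (adjusted p = 0.00384) and 1.89 (adjusted p = 0.00837), among 186 genes (1.49%), whereas limma called 0 genes. Over all alternatives the adjusted p of Cd274 ran from 0.00384 to 1.0 and that of Lgals9 from 0.00837 to 1.0. Without replicate 1 of the co-cultured keratinocytes edgeR called both as well, at 2.48 (adjusted p = 0.0422) and 2.03 (adjusted p = 0.0204), together with 1164 genes in all, and without replicate 2 it called 21 genes. The lone library is then assumed to vary like the other group. By libraries, 2 of 8 members lay above (19.8% of all genes) and 0 of 8 below (24.3%). The median log2 fold change was 0.85 over the members and 0.02 over all genes.

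The remaining 6 members had log2 fold changes of 0.3 (Havcr2) to 1.14 (Pdcd1) in keratinocytes, with standard errors of 0.88 to 1.39. Without replicate 2 of the co-cultured keratinocytes all 6 turned negative, from -0.58 (Tigit) to -1.67 (Havcr2). Without replicate 1 of keratinocytes alone Pdcd1lg2 (-0.04), Ctla4 (-0.01) and Havcr2 (-0.51) did so too. Within the replicate numbers, in contrast, all 6 were higher in co-culture, from 1.03-fold (Ctla4) to 2.5-fold (Pdcd1lg2) in replicate 1 and from 1.15-fold (Havcr2) to 2.2-fold (Pdcd1) in replicate 2. Without and with T cells in the culture, Pdcd1 had 4.61 and 18.1 against 6.85 and 39.8 RPKM, and Tigit 13.2 and 39.6 against 18.0 and 71.8 RPKM. Lag3 had 4.71 and 22.2 against 6.64 and 37.7 RPKM, Ctla4 2.34 and 6.99 against 2.42 and 10.8 RPKM, and Havcr2 0.252 and 1.58 against 0.29 and 1.8 RPKM. For each of these receptors replicate 2 was the higher one in both groups, as it was for Cd3 RNA, and the groups overlapped.

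Each level was therefore set against the sum of Cd3d, Cd3e and Cd3g, the invariant chains of the T-cell receptor complex, in the same library. For Pdcd1 the level was 6.86% and 7.24% of Cd3 in keratinocytes alone and 8.29% and 8.83% in co-culture. While its RPKM spanned 8.62-fold over these 4 libraries, its ratio to Cd3 spanned 1.29-fold. The same held for Lag3, at 7.01%, 8.89%, 8.04% and 8.37% of Cd3 (1.27-fold, against 8.0-fold in RPKM), for Tigit (1.37-fold against 5.44-fold), for Ctla4 (1.46-fold against 4.6-fold) and for Havcr2 (1.79-fold against 7.17-fold). Cd4 itself spanned 1.1-fold by this ratio and 7.39-fold in RPKM. PD-L2 RNA spanned 2.59-fold by the ratio and 15.2-fold in RPKM. Receptor RNA in keratinocyte libraries thus moved with Cd3 and Cd4 RNA, at near 0 RNA of Cd8a and Cd8b1. This was not particular to T-cell genes, since the myeloid marker Lyz2 was at 6.69, 27.4, 7.3 and 37.6 RPKM and the MHC class II gene H2-Aa at 3.26, 15.7, 6.1 and 26.9 RPKM in the same 4 libraries.

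Cd274 and Lgals9 did not follow Cd3 RNA in this way. Cd274 was at 0.909% and 0.506% of Cd3 in keratinocytes alone and at 6.66% and 1.07% in co-culture, a span of 13.2-fold, which exceeds its 9.01-fold span in RPKM. Lgals9 was at 17.8% and 7.7% of Cd3 alone and at 61.1% in replicate 1 of the co-culture, 7.94-fold against 4.89-fold. In replicate 2 of the co-culture its ratio lay between both values of keratinocytes alone, so that the groups overlapped by this ratio. Replicate 1 in co-culture, with little Cd3 RNA, held as much Cd274 RNA as replicate 2 with several times more. In the T-cell libraries Lag3 was at 34.4% and 18.4% of Cd3 in activated T cells and at 6.45% to 12.2% in the other T-cell libraries, and Ctla4 at 17.5% and 15.2% against 4.9% to 8.19%. Pdcd1 was at 7.76% and 7.28% against 2.98% to 6.68%, and Tigit at 13.2% and 17.0% against 6.84% to 12.1%. In these libraries Cd3 RNA itself was lower in activated T cells (359 and 707 RPKM) than in the others (882 to 1073 RPKM), which alone raises the ratio there.

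**Figure D3:**
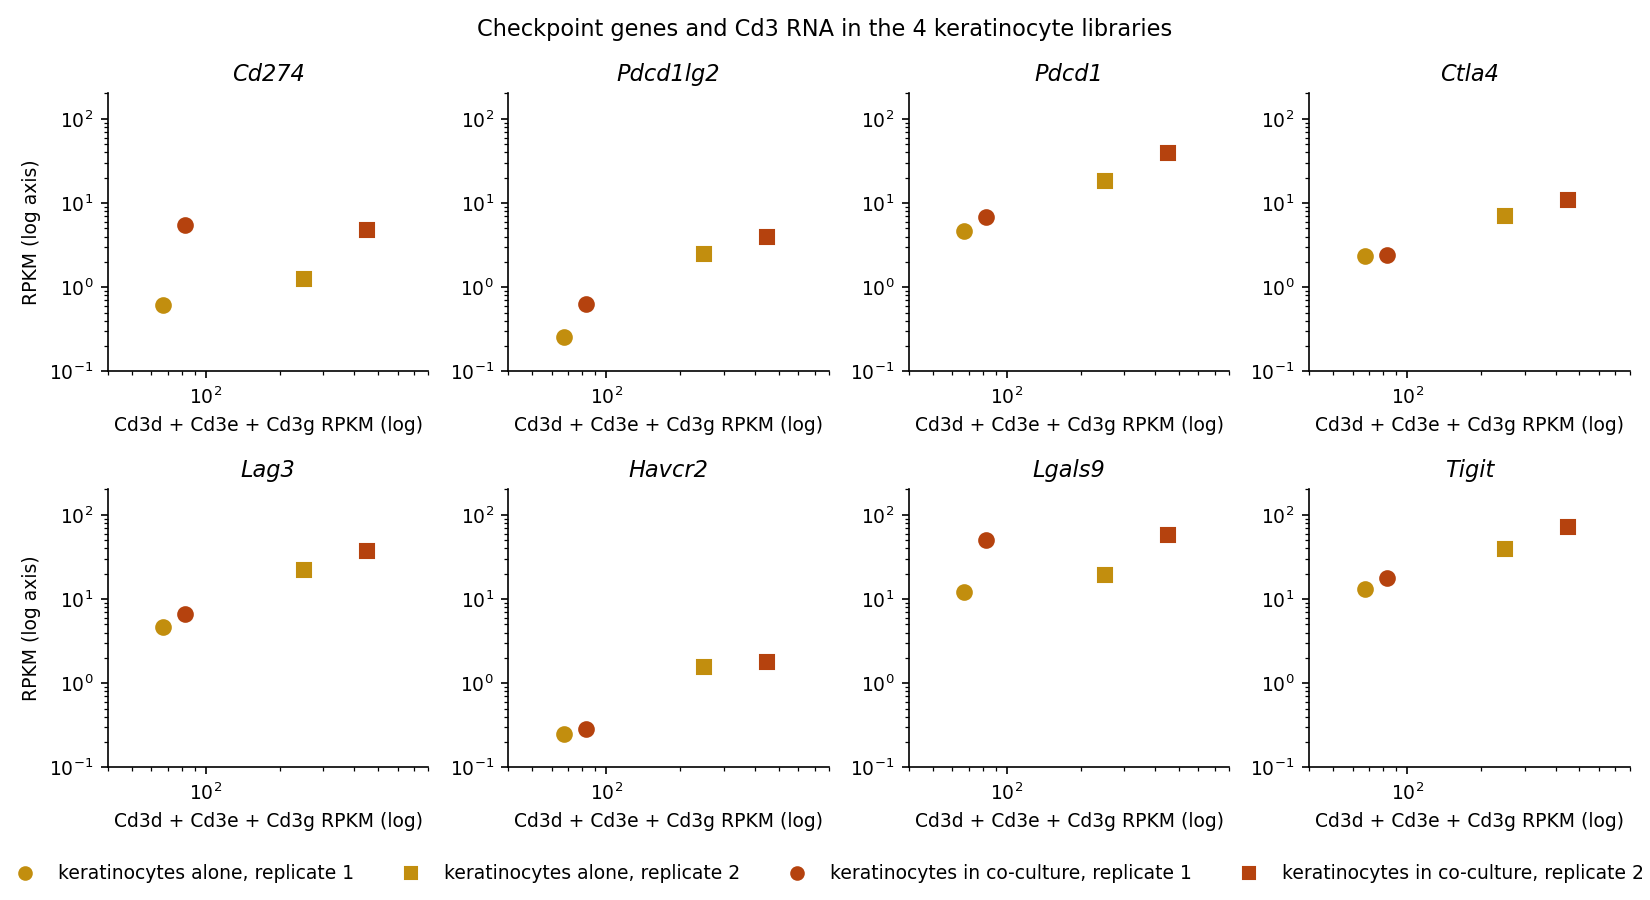
RPKM of each checkpoint gene against the summed RPKM of Cd3d, Cd3e and Cd3g in the 4 keratinocyte libraries, both on log axes. Circles are replicate 1 and squares replicate 2. Receptor levels climb with Cd3 RNA from 67.2 to 450.4 RPKM, whereas Cd274 and Lgals9 are as high in the co-cultured library with 82.6 RPKM of Cd3 as in that with 450.4.

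Whether co-culture acted differently on both cell types was tested by an interaction over 8 libraries, of keratinocytes and of T cells in mixed medium or co-culture. In edgeR it called 76 of 13202 genes (0.576%), 21 to 105 with 1 library left out, and 0 of the 8 members. Cd274 had a difference of 2.51 on the log2 scale (SE 0.63, adjusted p = 0.245) and Lgals9 of 1.73 (SE 0.51, adjusted p = 0.379). DESeq2 called Cd274, with an adjusted p of 0.0259, and over all alternatives the adjusted p of Cd274 ran from 0.0259 to 0.669.

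Before the cells met, activated T cells were compared with keratinocytes alone to see on which side each gene was higher. By edgeR 3 of the 8 members were higher in the T cells, as were 1740 of all 13394 genes, while 3014 of all genes were lower. In either direction 4754 genes were called (35.5%). These were 2394 and 3084 without replicate 1 or 2 of the keratinocytes, and 2799 without replicate 1 of the activated T cells. Ctla4 was higher by a log2 fold change of 4.05 (SE 0.82, adjusted p = 0.00579) and Lag3 by 3.08 (SE 0.9, adjusted p = 0.0274). Cd274, although a ligand, was higher in T cells as well, by 2.43 (SE 0.45, adjusted p = 0.00379). The call of Lag3 was lost without replicate 1 of the keratinocytes (adjusted p = 0.12) or without replicate 1 or 2 of the activated T cells (0.0703 and 0.0736), and it ran from 0.00129 to 0.12 over all alternatives. Pdcd1 and Tigit, with 1.66 (SE 0.9) and 1.54 (SE 0.78), were not called in this fit, but were with the replicate number as a block. Lgals9 was at 0.54 (SE 0.33). Pdcd1lg2, at 2.37 (SE 1.11, adjusted p = 0.128, 0.0429 to 0.37 over the alternatives), was called only without replicate 2 of the keratinocytes, at 4.89. The keratinocyte side of this comparison includes the T-cell RNA described above.

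Other genes of the pathway were taken from 5 lists. The first holds 21 further checkpoint ligands and partners, of which 19 were tested in keratinocytes. None was called there upon co-culture by edgeR, DESeq2 or limma, and their median log2 fold change was 0.2. An unadjusted p under 0.05 was found for 0 of them in edgeR, 2 in DESeq2 and 2 in limma. Nectin1, Nectin2 and Nectin4 were at high levels in keratinocytes and nearly missing in T cells, unlike Pvr, the main ligand of TIGIT, with 4.97 and 4.81 RPKM in keratinocytes alone and 4.38 and 7.67 RPKM in activated T cells. Nectin1 was at 46.1 ± 5.48 RPKM in keratinocytes alone and 0.517 ± 0.225 in activated T cells, Nectin2 at 40.9 ± 9.25 and 0.219 ± 0.261, and Nectin4 at 45.2 ± 6.83 and 0.0172 ± 0.00187. With log2 fold changes of -6.61, -7.69 and -11.34 they were among the 7 of 20 genes lower in activated T cells (adjusted p = 0.00116, 0.000638 and 0.00034, edgeR), against 4 higher, while 3014 of all 13394 genes were lower and 1740 higher. Lgals3 (galectin-3, a ligand of LAG-3) was another of the 7, with 565 ± 46.5 RPKM in keratinocytes alone and 17.7 ± 7.53 in activated T cells (log2 fold change -5.13, adjusted p = 0.000407). In co-culture Nectin1 was at 20.4 and 2.82 RPKM, both below both libraries of keratinocytes alone, at a log2 fold change of -1.96 that was not called. The CTLA-4 ligand genes Cd80 and Cd86 stayed at or below 2.17 RPKM in all keratinocyte libraries.

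In T cells, 14 genes of this list were tested. For this and the lists below, the shares of all genes that edgeR called are 6.54% in mixed medium and 10.3% in co-culture, and DESeq2 called 1947 and 2368 of all 11863 genes and limma 1128 and 1728. Cd200, which encodes the ligand of an inhibitory receptor of myeloid cells, fell in mixed medium (log2 fold change -1.79, adjusted p = 0.0375, edgeR) and in co-culture (-1.83, adjusted p = 0.0264), from 23.4 ± 9.18 RPKM to 6.08 ± 0.383 and 5.71 ± 0.398. DESeq2 called 4 of the 14 in each of these comparisons and limma 1, Cd200 being among them each time. None of the 14 was called between co-culture and mixed medium by edgeR, DESeq2 or limma, and 0 had an unadjusted p under 0.05.

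The second list holds 19 other T-cell co-receptors, with 18 tested in T cells. By edgeR, 1 rose and 2 fell in mixed medium, and 1 rose and 1 fell in co-culture, whereas DESeq2 called 5 in each, Cd226 among them, and limma called 3 in each. Tnfrsf9 (4-1BB), a costimulatory receptor of freshly activated T cells, fell in mixed medium (log2 fold change -3.44, adjusted p = 0.00991) and in co-culture (-3.87, adjusted p = 0.00322), from 159 ± 3.61 RPKM to 13.1 ± 0.818 and 9.39 ± 2.28. Tnfrsf4 (OX40) fell in mixed medium (log2 fold change -1.81, adjusted p = 0.0392), and in co-culture it was at -1.5 (adjusted p = 0.0508 in edgeR), where DESeq2 and limma called it. Cd96, a receptor of the TIGIT family, rose by 1.89 (adjusted p = 0.0343) and 1.77 (adjusted p = 0.0304), from 18.2 ± 7.28 RPKM to 62.3 ± 12.5 and 55.9 ± 18.6. Of the receptors that share ligands with members, Cd28 was at 42.0 to 79.3 RPKM and Cd226 at 22.0 to 41.5 RPKM in T cells. The list's medians were 0.39 and 0.25, and 0.89 in keratinocytes, where T-cell RNA was present too, all of the tested genes except Nt5e overlapped between the groups, and 0 of 17 were called or had an unadjusted p under 0.05 in edgeR, and 0 were called by DESeq2 or limma. Among the 18 signalling genes of inhibitory receptors, Dgka, a diacylglycerol kinase that dampens T-cell receptor signals, was the one gene that edgeR called in T cells, and it rose by 1.66 in mixed medium (adjusted p = 0.0455) and by 1.81 in co-culture (adjusted p = 0.0268). DESeq2 called 2 and 3 genes of this list, Dgka among them, and limma called 1 and 2, with Dgka in co-culture only. The phosphatase gene Ptpn6 (SHP-1) was at 87.7 and 58.8 RPKM in activated T cells and at 26.2 to 39.1 RPKM in the other T-cell libraries. DESeq2 and limma called it in co-culture, and edgeR did not (adjusted p = 0.0908). Ptpn11 (SHP-2) was at 16.1 and 10.3 RPKM in activated T cells and at 4.99 to 10.9 RPKM in the others.

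Of 22 transcription factors of activated and exhausted T cells, by edgeR 1 rose and 5 fell in mixed medium, and 0 rose and 5 fell in co-culture (DESeq2 called 8 in each, limma 5 in each). Nr4a3 fell with log2 fold changes of -4.51 and -4.35 (adjusted p = 0.0115 and 0.00638, edgeR), and Irf4 with -3.11 and -3.08 (adjusted p = 0.0122 and 0.00693). Both are induced by signals of the T-cell receptor. Nr4a2 and Nr4a1, relatives of Nr4a3, fell in both comparisons as well. Tcf7, a factor of naive and memory T cells, rose in mixed medium by 2.25 (adjusted p = 0.0401), with 629 and 258 RPKM against 93.1 and 109 RPKM. Co-cultured T cells had 1.88 for Tcf7 (adjusted p = 0.051), and DESeq2 called it in both comparisons and limma in neither. Tox, a factor of exhausted T cells, was at 4.42 and 11.8 RPKM upon activation and at 9.12 to 11.2 RPKM in the other T-cell libraries. Its list had medians of -0.05 in mixed medium and -0.22 in co-culture. In keratinocytes 0 of 22 were called by edgeR, DESeq2 or limma, and 1 had an unadjusted p under 0.05 in edgeR.

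The 15 genes of the IFN-γ list had a median log2 fold change of 1.01 in co-cultured keratinocytes, against 0.02 for all genes tested. For 7 of them both co-cultured libraries lay above both others, and for 3 below, against 19.8% and 24.3% of all genes. In edgeR 0 were called and 5 had an unadjusted p under 0.05, limma called 0, and DESeq2 called 4. Nlrc5, an activator of MHC class I genes, was one of these 4, with a log2 fold change of 2.95 in edgeR that was not called there. In T cells the list's medians were 0.67 in mixed medium and 0.98 in co-culture, but the gene that edgeR called in both was Ifng itself (DESeq2 called 5 and 7 genes, limma 2 and 2, each with Ifng). Its RNA fell in mixed medium (log2 fold change -6.36, adjusted p = 0.00345, edgeR) and in co-culture (-6.77, adjusted p = 0.00162), from 601 ± 16.5 RPKM to 6.57 ± 0.883 and 4.73 ± 2.08. In co-culture against mixed medium 0 of the 15 genes were called by edgeR, DESeq2 or limma, and 3 had an unadjusted p under 0.05 in edgeR.

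**Figure D4:**
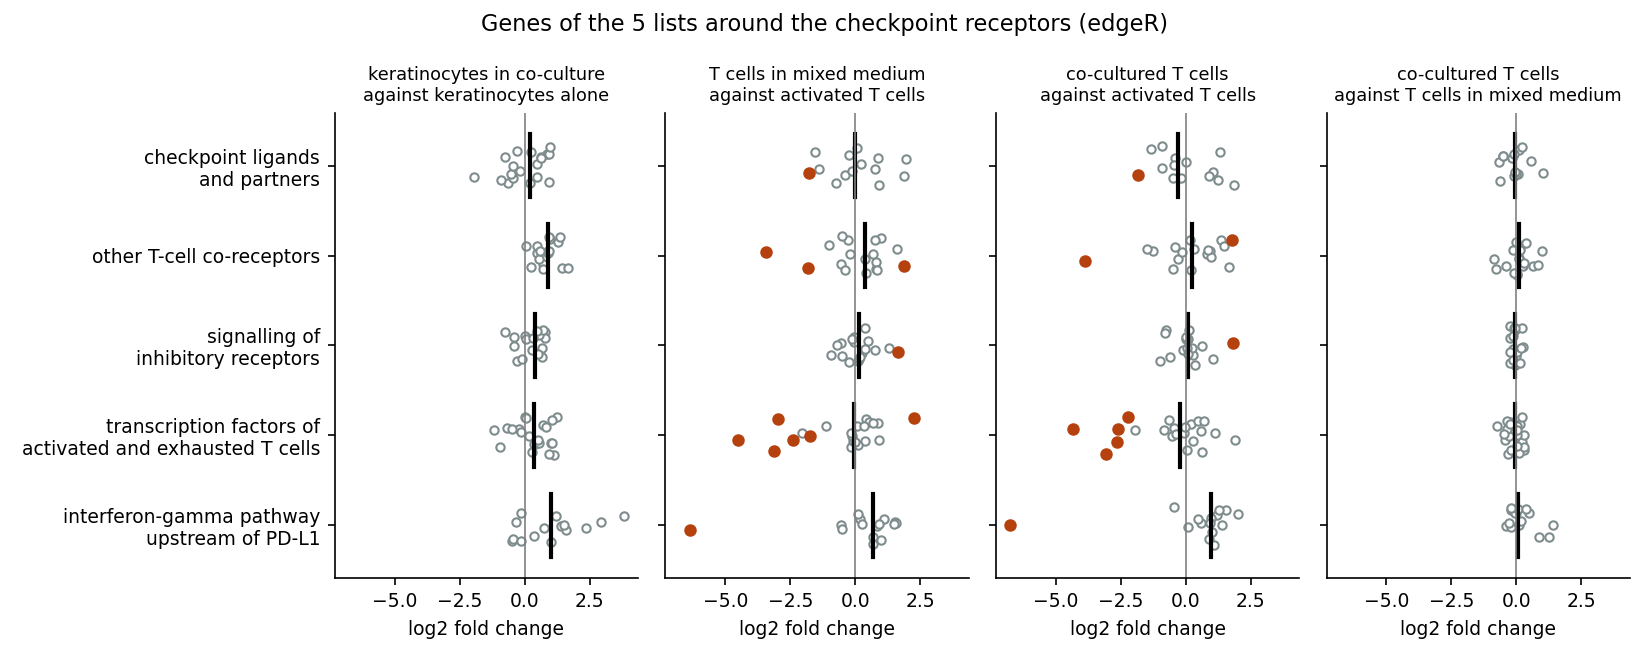
Log2 fold changes of the genes of the 5 lists in the 4 comparisons within a cell type (edgeR, 1 point a gene, black bars are medians). Filled points are called at an adjusted p under 0.05, which among these 4 occurs in both comparisons with activated T cells, with Ifng at -6.36 and -6.77 as the lowest point.

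Finally, the 3 genes most alike to each member were sought among the 8737 genes whose mean reached 5 RPKM in any group, by Pearson's r of log2(RPKM + 1) over the 10 libraries. These libraries share 2 cell types and the T-cell RNA in keratinocytes, and r is a description only. For Cd274 they were Psme2 (r = 0.953), Bst2 (0.934) and Irgm1 (0.929), and for Lgals9 Uba7 (0.985), Irgm2 (0.958) and Tap1 (0.957). All 6 are known as interferon-inducible genes. In keratinocytes their log2 fold changes upon co-culture were 2.15 (Bst2) to 4.58 (Irgm1), none of them called in edgeR. In mixed medium Psme2, Bst2 and Irgm1 were not called (0.12, -0.48 and 0.72), whereas Uba7, Irgm2 and Tap1 rose by 2.41, 1.87 and 1.73 (adjusted p = 0.0189, 0.0186 and 0.0205, edgeR). This follows from the choice, since the first 3 were sought by likeness to Cd274 and the others by likeness to Lgals9 in the same libraries.

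Among the receptors, Pdcd1 was most like Rps15 (r = 0.981), Ccr4 (0.976) and Tnfrsf1b (0.976), and Tigit most like Tnfrsf1b (0.991), Vim (0.987) and Tox (0.981). Ctla4 was most like Itgb1bp1 (0.988), Il21r (0.986) and Tspyl3 (0.986), and Lag3 like Il21r (0.988), Rbm38 (0.985) and Mfng (0.984). Il21r, the receptor gene of the cytokine IL-21, was hence named for both Ctla4 and Lag3, and Tnfrsf1b, a TNF receptor gene, for both Pdcd1 and Tigit. Havcr2 was most like Ccr6 (0.958), Il21 (0.949) and Tyrobp (0.949), and Pdcd1lg2 like Vps16 (0.953), 1600002K03Rik (0.941) and Cct4 (0.932). Of these 24 names, 22 were among the 20 most alike of their member with log2(RPKM + 0.1), but 10 by Spearman's rho. By rho, 0 of the 3 names of Cd274, Pdcd1, Ctla4 and Lag3 each were among these 20, so that their names hold by Pearson's r only.

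These results rest on 2 libraries a group, for which separate animals are not stated, so that calls apply to these cultures. RNA levels of Cd274, Pdcd1 and the others are not levels of the proteins on the cell surface. Keratinocyte libraries contained T-cell RNA in both groups, and co-cultured T cells contained RNA of keratinocytes, so that no level of a checkpoint gene can be assigned to single cells. Medium and time changed together after activation. These RNA libraries tell nothing on IFN-γ protein in the medium or on the binding of any factor at the promoters of Cd274 and Lgals9.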

How the data were processed

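Reads were mapped to GRCm38 by the authors with CLC Genomics Workbench at default settings. The deposited gene tables hold the authors' counts of exon reads, exon-junction reads and intron reads for each gene, together with the RPKM that the authors computed from the exon reads, and both were used as deposited. Fold changes and tests come from exon counts with edgeR 4.0.16 (filterByExpr, TMM, quasi-likelihood test, R 4.3.3), and adjusted p-values are those of Benjamini and Hochberg over all genes tested. DESeq2 1.42.0 and limma 3.58.1 were run as other tools. Keratinocytes were fitted on 4 libraries, T cells on 6, the interaction on 8 and the comparison of cell types on 10. Members and lists were chosen with earlier results of these data known. The tests, alternatives and naming rule were set before the tests given here were run. Besides members and their most alike genes, names were taken from the up to 4 called genes of a list and comparison with the largest fold change and a mean of 5 or more RPKM in a group, and from others where a sentence needed them. For activated T cells against keratinocytes such names are given for the ligands only. Promoters are from RefSeq, and gene coordinates and exon numbers are those of the deposited tables.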

Additional observations from a re-analysis of the deposited data

Results flagged for a closer look

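Intron reads entered no test. For Cd274 they amounted to 0.461 and 0.485 per 1e6 mapped reads in keratinocytes in co-culture (7 and 8 reads), and to 0.211 and 0.411 in keratinocytes alone (4 and 7 reads). For Pdcd1 they amounted to 0.985 and 1.34 in co-cultured T cells (15 and 19 reads), to 0.119 and 0 in activated T cells (2 and 0 reads), and to 0.842 and 0 in T cells in mixed medium (13 and 0 reads). Intron reads can stem from unspliced RNA or from genomic DNA, which these counts do not tell apart.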

How the results depend on the processing

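Counts of called genes depended on tool and filter. For keratinocytes in co-culture, edgeR called 0 genes, but 186 with DESeq2, 11 with no filter and 4 with all 10 libraries in the fit. Leaving out 1 library gave 0 to 1164. For T cells in mixed medium the 776 genes became 1947 with DESeq2, 1945 with no filter and 1277 with the trend over gene length removed, and 24 to 1067 with 1 library left out. For co-cultured against activated T cells the 1222 genes became 2368 with DESeq2, 2425 with no filter and 266 to 1093 with 1 library left out. For co-cultured T cells against mixed medium the 31 genes became 87 with DESeq2, 99 with limma on log2(RPKM + 1), 107 with limma on log2(RPKM + 0.1), 141 with no filter, 83 with all 10 libraries and 0 with at least 10 reads in every library, and 16 to 52 with 1 library left out. The interaction gave 353 in place of 76 with DESeq2, and 21 to 105 with 1 library left out. Activated T cells against keratinocytes gave 2394 to 3319 in place of 4754 with 1 library left out, but 5774 with DESeq2 and 5186 with only the libraries of both groups.

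In keratinocytes, DESeq2 called Cd274 at 2.54 and Lgals9 at 1.89. With 1 library left out, log2 fold changes ran from 2.06 to 3.17 for Cd274, 1.54 to 2.3 for Lgals9, -1.1 to 3.29 for Pdcd1lg2, -0.75 to 2.5 for Pdcd1, -0.97 to 1.65 for Ctla4, -1.04 to 2.4 for Lag3, -1.67 to 2.21 for Havcr2 and -0.58 to 1.92 for Tigit. Without replicate 1 of keratinocytes alone, Pdcd1lg2 was at -0.04, Ctla4 at -0.01 and Havcr2 at -0.51. Pdcd1lg2 was not tested at 10 reads in every library.

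With the replicate number as a replicate block, 2 genes were called in keratinocytes and neither Cd274 nor Lgals9 was. With the trend over gene length removed too, 431 were called, Cd274 (2.64) and Lgals9 (1.64) among them. The deviations of replicate 1 from its group mean had r = 0.558 between keratinocytes alone and in co-culture over 12515 genes. Labels do not state, however, that equal numbers share a batch. Over activated T cells and keratinocytes the block called 5758 genes, with Pdcd1 (1.96) and Tigit (1.64) in addition.

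In mixed medium, ranges with 1 library left out were -0.22 to 0.03 for Cd274, -0.42 to 0.55 for Pdcd1, -0.78 to 0.08 for Ctla4, -1.3 to 1.6 for Havcr2, 1.64 to 1.95 for Lgals9 and -0.57 to 0.85 for Tigit. With all 10 libraries, and with only the libraries of both groups, Pdcd1 was at 0.02 and Tigit at 0.01. In co-cultured against activated T cells, ranges were -0.25 to 0.03 for Cd274, -0.03 to 1.05 for Pdcd1, -0.47 to 0.39 for Ctla4, -0.32 to 0.05 for Lag3, -1.14 to 1.75 for Havcr2, 1.73 to 2.1 for Lgals9 and -0.14 to 1.29 for Tigit, and limma on log2(RPKM + 0.1) gave 0.06 for Havcr2. In co-cultured T cells against mixed medium Lgals9 ran from -0.06 to 0.31. For activated T cells against keratinocytes, Lag3 ran from 2.43 to 4.72 and Havcr2 from -0.65 to 3.33.

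Of the member values under alternatives 530 kept the call without a counted turn of direction, 31 turned direction, 10 gained a call and 8 lost one. No turn could be counted from a fold change of 0.0. This holds for Cd274 in co-cultured T cells against mixed medium, which ran from -0.15 to 0.13. With uniquely mapped reads 0 RPKM levels moved beyond 1 SD. The cause of these differences was not tested.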

Other observations

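Ctla4 had a higher share of intron reads among its exon and intron reads in the keratinocyte libraries (13.1%, 24.1%, 16.5% and 26.8%) than in the T-cell libraries (3.91% to 10.6%). Havcr2 had 23 intron reads beside 29 exon reads in replicate 1 of the activated T cells, a share of 44.2%.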
